A study of Mus musculus with 20 samples.

Results

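Hippocampal gene expression in male Fmr1 mutant and C57 mice was measured by RNA sequencing in 10 libraries out of 20 in the series. The 10 were 5 titled KO and 5 titled C57. The members were chosen by their titles, which mark these libraries as male. No measured value entered that rule, but earlier results of these data were known when the choice was made. The other 10 libraries hold the same 2 genotypes in females and are used here only for comparison. All animals were kept on a 12-hour light cycle, and libraries were made with a SMARTER mRNA-seq kit from 1.3 µg of TRIzol-extracted total RNA. The control animals are C57, with the genotype field WT. The mutant animals are called KO in the titles and Fmr1 knockdown in the genotype field, and the labels give no allele and no age. Any other genetic difference between the mutant and C57 animals cannot be told apart here from the loss of Fmr1. Whether each sample is a different animal is not stated either, so the p-values rest on the spread among 5 samples per group, which may be technical. Values are FPKM per gene (fragments scaled to transcript length and to a library's mapped fragments), analysed as log2(FPKM + 1). A log2 difference is the KO mean minus the C57 mean on that scale. It understates how much a gene of low level changed.

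Fmr1, on the X chromosome, encodes FMRP, an RNA-binding protein that represses the translation of many neuronal mRNAs, several of them coding for synaptic proteins. Its loss in humans causes fragile X syndrome, and loss in mice alters dendritic spines and signalling through metabotropic glutamate receptors in the hippocampus. Since FMRP acts mainly on translation, mRNA levels are only one part of what it controls.

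The libraries had the markers of hippocampal tissue. Prox1, a transcription factor of dentate granule cells, ran from 15.1 to 18.3 FPKM, Fibcd1 of CA1 from 20.3 to 24.9 and Cpne4 of CA3 from 26.5 to 28.0. The Y-linked gene Ddx3y lay between 12.6 and 17.6 FPKM in all 10 libraries and did not exceed 0.0286 in any female library. Across genes, the Pearson correlation of log2 values between any pair of male libraries was 0.9837 to 0.9898, and genes are not independent replicates. Between 12766 and 12885 of 13256 listed genes reached 0.5 FPKM, and mitochondrially encoded genes took 17.5% to 20.4% of each library's total. The depth of sequencing cannot be read from FPKM. Male KO replicate 2 stood apart in choroid plexus genes: Ttr, the thyroid hormone carrier of that epithelium, was at 583 FPKM there and at 14.0 to 169 in the other 9 libraries.

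In the male hippocampus 5 genes differed between KO and C57, and all 5 were lower in KO. They were Fmr1, the skeletal muscle genes Atp2a1, Ckm and Myh4, and the protease inhibitor gene Serpina3n. No gene rose. The 5 genes are 0.0387% of the 12933 that reached 0.5 FPKM in at least 5 of the 10 libraries (limma, Benjamini-Hochberg adjusted p under 0.05). The 3 muscle genes reached that level only in the C57 libraries, and with a filter of 2 FPKM only Fmr1 passed. Female libraries of both genotypes were also low in these 3 genes, so male C57 was the group that stood apart. At an unadjusted p under 0.05 the same fit gave 398 genes higher (3.08%) and 638 lower (4.93%), 8.01% together. Most differences were small. The median absolute log2 difference was 0.0531, 95% of genes lay within 0.221, and the median over all genes was -0.00151.

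**Figure D1:**
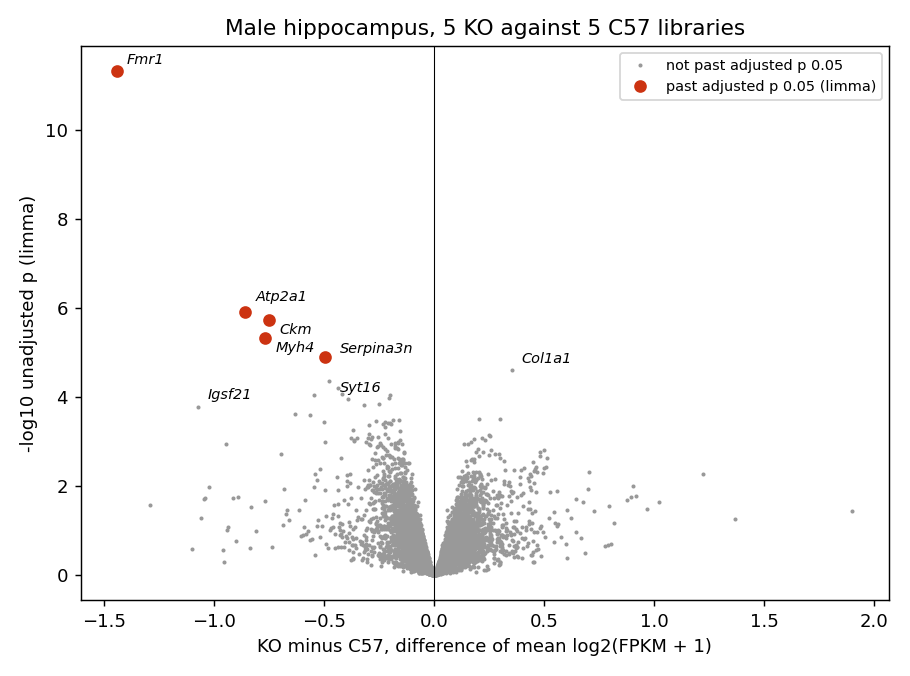
Each point is 1 of the 12933 genes, with the log2 difference (KO minus C57) on the horizontal axis and -log10 of limma's unadjusted p on the vertical axis. The 5 genes past an adjusted p of 0.05 (large red points) all lie left of 0, and Fmr1 stands apart at -1.44.

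Fmr1 (ENSMUSG00000000838.17, mm10, chromosome X, 68678541 to 68717963) checked the labels. Its FPKM in C57 replicates 1 to 5 were 10.5, 11.8, 11.8, 11.4 and 11.3. In KO replicates 1 to 5 they were 3.65, 3.41, 3.31, 3.70 and 3.72. Every KO library lay below every C57 library, at a mean of 3.56 ± 0.187 against 11.4 ± 0.527 FPKM (SD, n = 5 each). The log2 difference was -1.44 (SE 0.046, limma adjusted p = 6.33e-08), and an exact two-sided permutation test gave p = 0.0079, the smallest this design allows. The KO libraries kept 31.3% of the C57 level, and a gene-level value does not show which exons those fragments came from. The paralogs that encode related RNA-binding proteins did not pass: Fxr1 had a log2 difference of -0.04 (limma adjusted p = 0.875) and Fxr2 of 0.04 (0.819). Of 17 genes of the FMRP family and its partners, only Fmr1 passed in the limma fit, and the list median was -0.03.

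The muscle genes formed the largest group among the 5. Ckm encodes the muscle creatine kinase, Atp2a1 the calcium pump SERCA1 of fast fibres, and Myh4 the myosin heavy chain of the fastest fibres. The 250 bases before each RefSeq transcription start (GRCm38.p6, the assembly behind mm10) are printed because these genes are known to share regulation by myogenic basic helix-loop-helix factors, whose E-boxes include CAGCTG. Capitals mark that motif, which reads the same on both strands.

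Ckm, chr7:19410844-19411093, plus strand: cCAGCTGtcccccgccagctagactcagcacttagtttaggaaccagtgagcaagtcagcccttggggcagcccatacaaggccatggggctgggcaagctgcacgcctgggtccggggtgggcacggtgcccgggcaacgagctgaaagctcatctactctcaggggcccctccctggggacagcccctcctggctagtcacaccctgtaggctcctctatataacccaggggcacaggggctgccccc
Atp2a1, chr7:126463074-126463323, minus strand: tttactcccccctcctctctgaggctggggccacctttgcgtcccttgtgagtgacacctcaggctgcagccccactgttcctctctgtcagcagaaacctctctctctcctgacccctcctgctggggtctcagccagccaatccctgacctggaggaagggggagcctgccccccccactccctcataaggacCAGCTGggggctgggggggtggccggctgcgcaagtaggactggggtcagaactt
Myh4, chr11:67237562-67237811, plus strand: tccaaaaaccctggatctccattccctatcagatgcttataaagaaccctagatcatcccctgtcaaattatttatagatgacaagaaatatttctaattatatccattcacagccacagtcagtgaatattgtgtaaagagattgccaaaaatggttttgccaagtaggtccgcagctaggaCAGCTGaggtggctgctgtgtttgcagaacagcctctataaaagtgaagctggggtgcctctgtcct

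Each sequence holds 1 CAGCTG, which begins 249 bases before the start of Ckm, 55 before that of Atp2a1 and 67 before that of Myh4. The motif was chosen after the sequences were seen. It occurs in 4271 of 32851 promoters of this length (13%), and a match is a description, not a site or a cause.

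Atp2a1 (chromosome 7, 126445858 to 126463108) stood at 0.707, 1.09, 0.781, 1.36 and 0.664 FPKM in C57 replicates 1 to 5. In the KO replicates it stood at 0.0354, 0.067, 0.0357, 0.0738 and 0.0285. The groups did not overlap, and the gene was lower in KO by 0.86 on the log2 scale (SE 0.090, limma adjusted p = 0.00795). Ckm (chromosome 7, 19404776 to 19422841) had 1.05, 0.556, 0.510, 0.819 and 0.535 FPKM in the C57 libraries and was listed at 0 in all 5 KO libraries. It was lower in KO by 0.75 on the log2 scale (limma adjusted p = 0.00795). No fold is given against a listed 0, which can be a failed estimate. Myh4 (chromosome 11, 67238029 to 67260446) had 1.26, 1.03, 0.505, 0.798 and 0.773 FPKM in C57. In KO it had 0.094, 0.0657, 0.116, 0.0855 and 0.0892, again without overlap (log2 -0.77, SE 0.093, limma adjusted p = 0.0154). Each of the 3 genes reached 0.5 FPKM only in the C57 libraries, so the filter admitted them through the group where they were high, and all 3 also passed with no filter. In bulk tissue, fewer cells of a type and less RNA per cell cannot be told apart, here and in the results that follow.

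Other muscle genes divided into those that were near 0 outside male C57 and those that were not. Of 32 listed skeletal muscle genes 17 were in the tables and 14 were tested. At an unadjusted p under 0.05, 7 of them were lower, as 4.93% of all genes were. The 7 include Atp2a1, Ckm and Myh4, which the filter admitted through the C57 libraries, and Pvalb, which is also an interneuron gene. The count therefore adds no separate evidence to the calls of those genes. Tnnc2, the fast troponin C, missed the filter with 1.28, 0.827, 0.630, 1.06 and 0.390 FPKM in C57 and 0.102, 0.0872, 0.0943, 0 and 0 in KO. Tnnt3, the fast troponin T, missed it with 0.286, 0.869, 0.504, 0.904 and 0.648 against 0.213, 0.0979, 0.0967, 0 and 0.114. Neither gene overlapped between the groups. Acta1, the skeletal actin, had 4.61 ± 0.914 FPKM in C57 and 3.15 ± 0.272 in KO (SD, n = 5, log2 -0.42, limma adjusted p = 0.304), and its ranges overlapped. The ryanodine receptor gene Ryr1 (0.611 ± 0.0683 and 0.612 ± 0.0936 FPKM), the titin cap gene Tcap (0.636 ± 0.238 and 0.642 ± 0.281) and the slow troponin I gene Tnni1 (0.708 ± 0.159 and 0.686 ± 0.175) stood at like levels in both groups.

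The female libraries resembled the male KO libraries in these genes. Ckm did not exceed 0 in female C57 and 0.029 FPKM in female KO, Atp2a1 did not exceed 0.0725 and 0.102, and Myh4 0.103 and 0.13. Male C57 was therefore the group that stood apart, in all 5 of its libraries. Summed over the 17 genes the muscle list gave 52.8 to 71.8 FPKM in male C57, 46.4 to 54.3 in male KO, 50.7 to 67.1 in female C57 and 49.2 to 57.6 in female KO, most of it from Pvalb, which hippocampal interneurons also express. The source of the muscle transcripts was not tested.

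**Figure D2:**
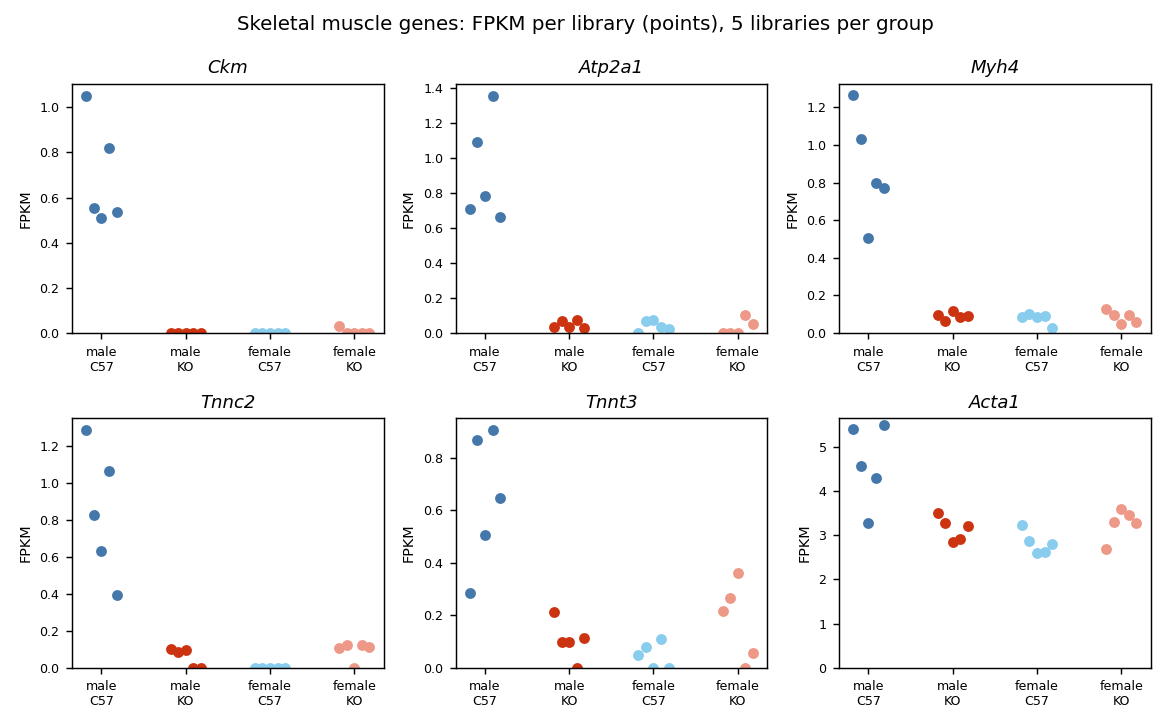
FPKM of 6 skeletal muscle genes (vertical axis) in each library of the 4 groups (1 point per library, 5 per group). Ckm, Atp2a1 and Myh4 are between 0.505 and 1.36 FPKM in male C57 and at or below 0.13 in every other library, while Acta1 is above 2.6 in all libraries.

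Serpina3n encodes a secreted serine protease inhibitor that reactive astrocytes make. Its FPKM (chromosome 12, 104406729 to 104414329) were 21.8, 19.7, 22.9, 22.0 and 22.6 in C57 replicates 1 to 5. The KO replicates had 13.3, 16.0, 15.8, 16.9 and 14.2. The highest KO library was below the lowest C57 library, and the gene fell by 0.49 on the log2 scale (SE 0.066, limma adjusted p = 0.0332). The difference in the female libraries, which are separate from these, was -0.43 (limma adjusted p = 0.0283). Serpina3n lies in a cluster of near-identical paralogs, and how reads were divided among them is not known here. Without any 1 of C57 replicates 1, 3, 4 and 5 or KO replicates 2, 3 and 5 the call was lost, as it was with a filter of 2 FPKM, and the call of Myh4 was lost without C57 replicate 2, 4 or 5 or KO replicate 2, 3, 4 or 5.

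No other reactive astrocyte gene passed. Of 21 tested, 14 were below 0 with a median of -0.02, and Gfap, the astrocyte intermediate filament, was at 71.0 ± 3.31 FPKM in C57 and 75.2 ± 3.04 in KO (log2 0.08, limma adjusted p = 0.667). Among 11 serine protease inhibitor genes 10 were below 0, with a median of -0.08, and in females 6 of the 11 were below 0. Serpinb8, an intracellular inhibitor, had 0.874 ± 0.138 and 0.535 ± 0.0856 FPKM without overlap (log2 -0.29, limma adjusted p = 0.241).

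Several genes that did not pass had libraries that separated the groups completely, as 2.01% of all genes did. Those described next were named for small p-values in the same libraries, so the separation adds no further evidence. Syt16, a member of the synaptotagmin family of membrane trafficking proteins, had 8.10, 8.98, 8.74, 8.92 and 9.10 FPKM in C57. The KO libraries had 6.01, 5.71, 5.78, 5.29 and 7.46, the last of them well above the other KO values but still below C57. The log2 difference was -0.48 (limma adjusted p = 0.0805), and the gene passed without KO replicate 5 and in the fit over all 20 libraries (limma adjusted p = 0.00094). In females it fell by 0.52 on the log2 scale (limma adjusted p = 0.00165). The list of 17 genes holds synaptotagmins and synaptotagmin-like genes, and its median was -0.02. Syt16 and the synaptotagmin-like gene Sytl2 (log2 -0.19) were lower without overlap between the groups, as 1.4% of all genes were.

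Klk8 encodes neuropsin, an extracellular serine protease of the hippocampus. It had 5.97, 5.15, 5.04, 6.46 and 6.54 FPKM in C57 and 3.99, 3.97, 4.15, 4.35 and 4.0 in KO (log2 -0.42, limma adjusted p = 0.109). Krt9, a type I keratin gene, had 4.71, 5.02, 4.56, 4.43 and 5.01 against 3.09, 3.88, 3.29, 2.70 and 3.33 (log2 -0.44, limma adjusted p = 0.104). The ranges of both genes were separate, and in females, in separate libraries, both fell (Klk8 log2 -0.42, limma adjusted p = 0.0487, and Krt9 -0.55, 0.0435). Phyh, an enzyme of peroxisomal fatty acid breakdown, had 46.2 ± 1.70 FPKM in C57 and 39.9 ± 1.05 in KO (log2 -0.20, limma adjusted p = 0.109). Ccnd1, the cyclin D1 of the G1 phase, had 10.9 ± 0.599 and 8.09 ± 0.864 FPKM (log2 -0.39, limma adjusted p = 0.109). Ajap1, a junction-associated membrane protein gene, had 15.2 ± 0.362 and 13.1 ± 0.308 (log2 -0.20, limma adjusted p = 0.109). Bhlhe41, a repressor in the circadian clock, had 7.90 ± 0.462 and 6.48 ± 0.120 (log2 -0.25, limma adjusted p = 0.134).

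Igsf21, which encodes a synaptic adhesion protein, had the largest log2 difference among the named genes that did not pass and did not overlap. It had 10.6, 9.73, 10.6, 10.4 and 10.6 FPKM in C57 and 2.04, 4.74, 5.67, 4.50 and 6.24 in KO. The KO values were scattered, and the log2 difference of -1.07 had a limma adjusted p of 0.134. The female KO libraries were at 6.40, 11.9, 12.3, 12.1 and 1.62, so 3 of them lay within the female C57 range of 9.75 to 12.4.

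**Figure D3:**
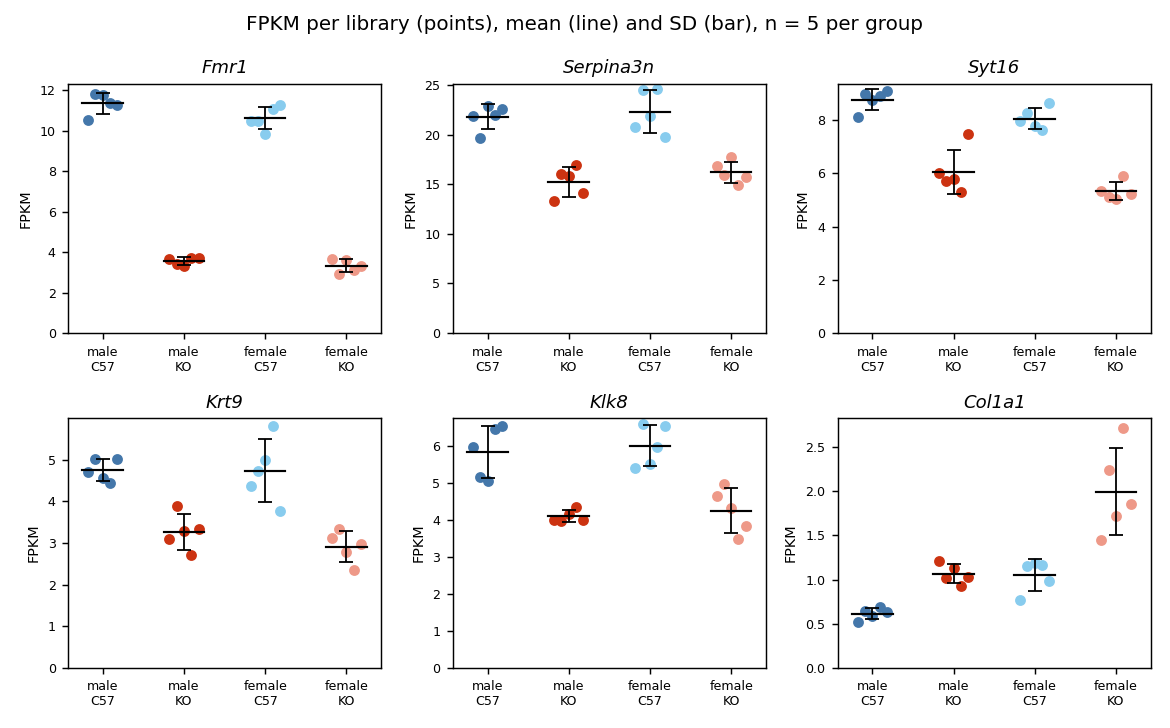
FPKM (vertical axis) of Fmr1, Serpina3n, Syt16, Krt9, Klk8 and Col1a1 in each library of the 4 groups (points), with the group mean (line) and SD (bar), 5 libraries per group. In males and in females the KO points lie on 1 side of all C57 points in each of the 6 genes, below them in 5 and above them in Col1a1.

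Col1a1, the alpha chain of fibrillar type I collagen, came nearest to the threshold on the higher side. Its FPKM were 0.518, 0.639, 0.585, 0.689 and 0.637 in C57 and 1.21, 1.02, 1.13, 0.932 and 1.03 in KO. The groups did not overlap (log2 0.35, limma adjusted p = 0.0538), and the gene passed after upper-quartile rescaling and with library weights. In females the log2 difference was 0.54, just short of the threshold (limma adjusted p = 0.05, rounded). Meningeal fibroblasts express Col1a1, and all 11 tested genes of that cell type were above 0 in male KO, with a median of 0.12 and 3 at an unadjusted p under 0.05 (3.08% of all genes on that side). That count was 1 in the fit over all 20 libraries and 6 without KO replicate 4. Their summed level ran from 30.9 to 41.2 FPKM in C57 and from 30.2 to 47.5 in KO, overlapping, and their part in the Col1a1 difference was not tested. The median of the list moved between 0.05 and 0.21 when single libraries were left out. Over 38 collagen and matrix genes 26 were above 0 (median 0.05), and Tnxb, tenascin X, had 0.771 ± 0.0368 and 1.13 ± 0.193 FPKM without overlap (log2 0.26, limma adjusted p = 0.264).

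The other higher genes with the smallest p-values had adjusted p-values of 0.183 to 0.264 in limma. Rap1gap2, which inactivates the small GTPase Rap1, had 16.9 ± 0.868 FPKM in C57 and 19.6 ± 0.457 in KO (log2 0.21). Gng4, a G protein gamma subunit gene, had 8.21 ± 0.329 and 9.95 ± 0.772 (log2 0.25). Epb41l1, a membrane skeleton protein of neurons, had 31.0 ± 0.544 and 34.1 ± 1.01 (log2 0.14). Along with Tedc2, Fam206a, Dgkh, Impdh1, Paqr9, Islr2 and Capn5 they were higher without overlap, as 0.611% of all genes were, while March7 overlapped. These genes were picked by their p-values in the same libraries, so the separation adds no further evidence. Dgkh, a diacylglycerol kinase gene, had a log2 difference of 0.18 in males and -0.26 in females.

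Oligodendrocytes wrap axons in myelin, and their genes lay below 0 together in male KO. All 18 tested had a negative log2 difference, with a median of -0.17 against -0.00151 over all genes, and 9 had an unadjusted p under 0.05, where 4.93% of all genes were lower at that level. None passed, and the count was 4 in the fit over all 20 libraries and 15 without KO replicate 2. Fa2h, which makes the hydroxylated fatty acids of myelin lipids, had 11.8, 10.4, 11.9, 11.1 and 10.2 FPKM in C57. In KO it had 7.85, 9.08, 9.24, 8.95 and 8.39, without overlap (log2 -0.32, limma adjusted p = 0.134). Ugt8a, the enzyme of galactocerebroside synthesis, had 14.3 ± 0.807 and 11.8 ± 0.856 FPKM (log2 -0.25, limma adjusted p = 0.241). Ndrg1 (log2 -0.15) and the transcription factor gene Nkx6-2 (-0.18) also did not overlap. In all, 4 of the 18 were lower without overlap, as 1.4% of all genes were. In females Ndrg1 was higher (log2 0.10), while 17 of the 18 were below 0. The groups overlapped in Mbp, myelin basic protein, which ran from 51.3 to 66.7 FPKM in C57 and from 49.7 to 57.7 in KO.

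Summed over the 18 genes the C57 libraries had 1107, 898.9, 963.1, 976.1 and 927.4 FPKM and the KO libraries 831.4, 981.1, 851.4, 810.5 and 812.7. KO replicate 2, the library with high Ttr, was the only KO library inside the C57 range. Without it the median was -0.21 and 15 of the 18 had an unadjusted p under 0.05. Over all libraries left out in turn the median stayed between -0.21 and -0.15, with 7 to 15 genes at that level, and none of the 18 passed in any of the 19 alternative fits. The female libraries gave a median of -0.15 for the same list, on sums from 678.8 to 1149 FPKM in C57 and from 745.2 to 917.2 in KO. Precursor genes were lower in part: 7 of 10 were below 0 (median -0.13), among them Olig2 (log2 -0.18, limma adjusted p = 0.435) and Sox10 (-0.23, 0.523). In females the median of the precursor list was 0.01, with 5 of the 10 below 0.

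Astrocyte genes lay mostly above 0, 12 of 15 with a median of 0.08. Slc1a2, the main glutamate transporter, had 210 ± 17.8 FPKM in C57 and 236 ± 5.18 in KO (log2 0.17, limma adjusted p = 0.432), and Aqp4, the water channel, 34.6 ± 3.42 and 38.4 ± 1.51 (log2 0.15, limma adjusted p = 0.549). Microglial genes had a median of -0.05 over 18. Endothelial genes (18, median -0.02), pericyte and smooth muscle genes (11, 0.06), erythrocyte genes (7, 0.11), ependymal genes (13, 0.04) and choroid plexus genes (6, 0.11) gave no call. The erythrocyte median was 0.01 without KO replicate 3 and 0.03 without C57 replicate 2. Without KO replicate 2 the ependymal median turned to -0.03 and the choroid plexus median to -0.24, with all 6 genes below 0, and without KO replicate 3 the ependymal median was -0.01. Without C57 replicate 2 or 5 the choroid plexus median was 0.01 or 0.02 and the ependymal one 0.05 or 0.01. The choroid plexus sum was 700.5 FPKM in KO replicate 2 and at most 218.8 in the other male libraries, and without that library Ttr had a log2 difference of -0.65 in place of 0.19. Of the pituitary hormones only Pomc was tested (log2 -0.07), and Prl did not exceed 0.147 FPKM.

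**Figure D4:**
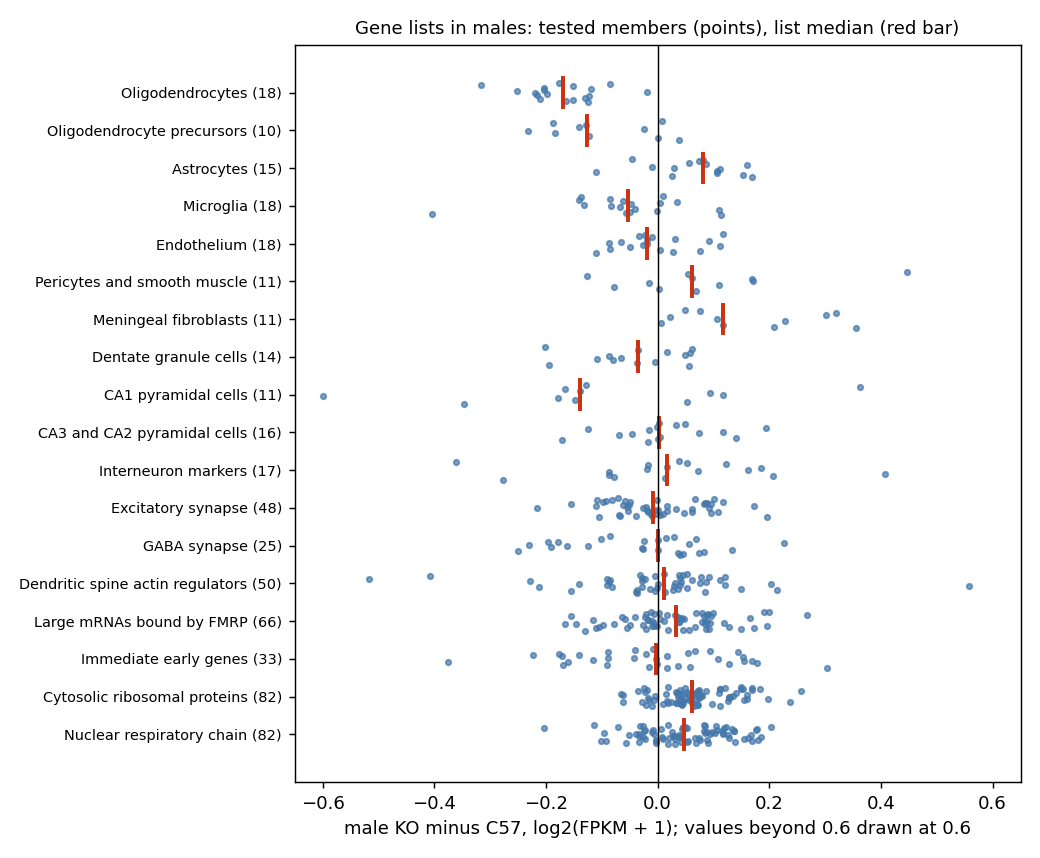
Log2 difference between male KO and C57 (horizontal axis) for each tested member (points) of 18 gene lists, with the list median as a red bar and the number tested in parentheses. Oligodendrocyte genes lie left of 0 and meningeal fibroblast genes right of it, and most synaptic lists are centred near 0.

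Pyramidal cell genes of CA1 had a median of -0.14 over 11 tested, with 5 lower at an unadjusted p under 0.05, a level that 4.93% of all genes reached on that side. The count was 2 without KO replicate 2, 2 with 1 gene higher without C57 replicate 4, and 3 after upper-quartile rescaling or without any 1 of C57 replicates 1 and 5 and KO replicates 1, 3 and 4. Wfs1, an endoplasmic reticulum protein used as a CA1 marker, had 27.8, 23.4, 30.3, 30 and 29.4 FPKM in C57. The KO libraries had 20.8, 25.2, 20.8, 21 and 21.7, of which replicate 2 was above the lowest C57 library (log2 -0.35, limma adjusted p = 0.241). The CA1 marker Fibcd1 was at 0.05. In females the median of the CA1 list was 0.04, with 5 of the 11 below 0. Dentate granule cell genes (14, median -0.04), CA3 and CA2 genes (16, 0.00) and interneuron genes (17, 0.02) had members on both sides of 0. Among interneuron peptides Penk, preproenkephalin, had a log2 difference of -0.36 (limma adjusted p = 0.241) and Cort, cortistatin, of 0.41 (0.367).

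No synaptic list held a gene that passed. The 48 excitatory synapse genes had a median of -0.01, and Nlgn3 and Dlgap3 were lower at an unadjusted p under 0.05, a share near the 4.93% of all genes. Of 25 GABA synapse genes 4 were lower at that level, each an alpha subunit of the GABA-A receptor: Gabra3 (log2 -0.16), Gabra5 (-0.23), Gabra4 (-0.12) and Gabra2 (-0.19), with limma adjusted p-values of 0.363 to 0.475. Gabra2 and Gabra3 were lower without overlap between the groups, as 1.4% of all genes were, and the median of the list was 0.00. In females the log2 differences of Gabra2 and Gabra3 were 0.07 and 0.01. Gabra3 is also one of the X-linked genes within 10 Mb of Fmr1. Large mRNAs known to be bound by FMRP had a median of 0.03 over 66, 39 of them above 0. Nrxn3, a presynaptic neurexin, had 22.7, 21.3, 22.0, 21.1 and 22.0 FPKM in C57 and 21, 19.2, 19.0, 19.5 and 19.5 in KO (log2 -0.15, limma adjusted p = 0.304). The highest KO value was just below the lowest C57 value.

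Genes that regulate actin in dendritic spines, a structure the series title names, had a median of 0.01 over 50, and of 0.00 in females. At an unadjusted p under 0.05, 2 were higher and 4 lower, where 3.08% and 4.93% of all genes were. Without overlap 1 was higher and 2 were lower, as 0.611% and 1.4% of all genes were. Pak1, a kinase downstream of Rac that controls spine actin, had 66.4, 63.5, 68.1, 62.1 and 60.4 FPKM in C57 and 58.6, 57.5, 60.0, 56.1 and 55.1 in KO. The ranges were separate by a small margin (log2 -0.15, limma adjusted p = 0.317). Nckap1, a subunit of the WAVE actin-nucleating complex, ran from 159 to 171 FPKM in C57 and from 148 to 157 in KO (log2 -0.08, limma adjusted p = 0.526). Both genes were also lower without overlap in females, by 0.12 and 0.18 on the log2 scale. Abi2, another WAVE subunit gene, was higher (log2 0.56, limma adjusted p = 0.444), with C57 replicate 3 at 10.1 FPKM against 3.81 to 5.2 in the other C57 libraries and 7.51 to 9.82 in KO. It passed only without that library.

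The remaining lists held no gene that passed. Of 33 immediate early genes 7 were lower and 1 higher at an unadjusted p under 0.05 (4.93% and 3.08% of all genes), and the lower ones included Egr3 (log2 -0.17), Bdnf (-0.17), Nptx2 (-0.22) and Inhba (-0.18). The list median was 0.00, and in females it was 0.08, with 11 of the 33 below 0. Cytosolic ribosomal protein genes were above 0 in 68 of 82 (median 0.06) and nuclear respiratory chain genes in 58 of 82 (median 0.05), and in both the C57 replicate 3 sum was the lowest of the 10 libraries (6743 and 4581 FPKM). Without that library both directions turned: 55 of the 82 ribosomal genes were below 0 (median -0.02), and 47 of the 82 respiratory chain genes (median -0.01). Medians were -0.02 for voltage-gated channels, 0.03 for mTOR, PI3K and protein synthesis control, 0.02 for mitochondrially encoded genes, -0.02 for heat shock and folding and 0.02 for cholesterol synthesis. They were 0.06 for the glucocorticoid response, -0.04 for the circadian clock, 0.06 for interferon response and MHC, 0.04 for monoamine and acetylcholine receptors and -0.01 for autism risk genes. The 70 tested X-linked genes within 10 Mb of Fmr1 had a median of 0.03. At an unadjusted p under 0.05, 5 of them were higher and 8 lower, where 3.08% and 4.93% of all genes were. Without overlap 1 was higher and 2 were lower, as 0.611% and 1.4% of all genes were. A link to the targeted locus was not tested. Among the 4 Y-linked genes Kdm5d was higher without overlap (log2 0.13, limma adjusted p = 0.479).

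Counting genes whose 5 KO libraries all lay on 1 side of the 5 C57 libraries gave 79 higher (0.611%) and 181 lower (1.4%), 260 in all (2.01%). The female libraries, which share none with these, were then read for the same genes. Of the 76 higher genes also tested in females 61 had the same sign (80.3%, against 52% of all genes), and of the 175 lower genes 138 (78.9%, against 48%). The 175 include Fmr1, the targeted gene, which also enters the counts of lower genes that follow. In the same direction as in males, 25 and 54 of them had an unadjusted p under 0.05 in females, against 11.1% and 8.68% of all genes. The count that passed in females was 4 and 9, where 0.925% of all genes passed. Genes without overlap in the same direction in both sexes numbered 12 higher, 15.2% of the 79 and 2.89% of the 415 found in females, and 30 lower, 16.6% of the 181 and 8.15% of 368. The female shares over all genes were 3.21% higher and 2.85% lower. Scn3a, a sodium channel gene, was the 1 gene without overlap in opposite directions.

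**Figure D5:**
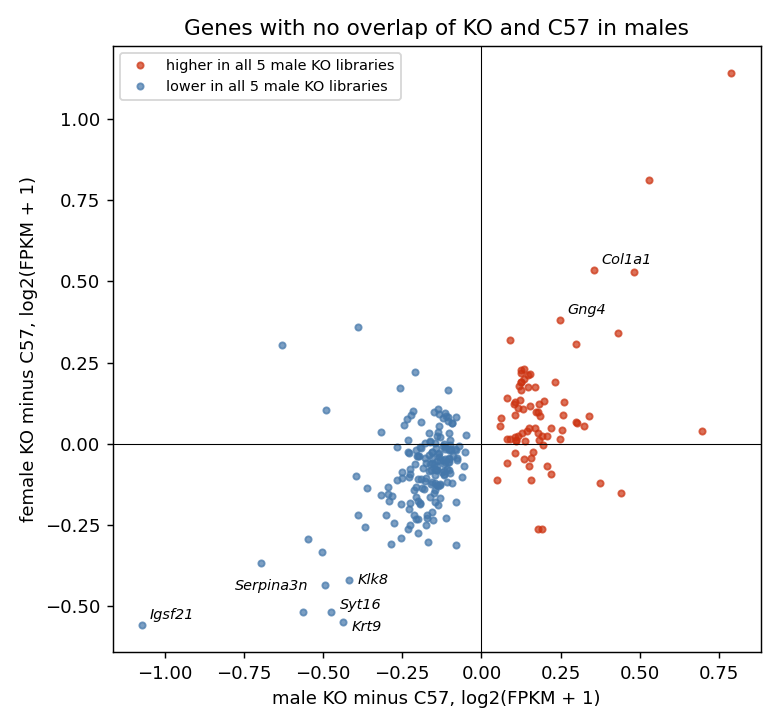
Log2 difference in males (horizontal axis) against that in females (vertical axis) for the 250 genes other than Fmr1 that did not overlap between male KO and C57 and were tested in females. Most points lie in the lower left and upper right of the plot, with Serpina3n, Syt16, Krt9 and Klk8 among the lowest in both sexes.

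The 12 genes higher in both sexes included Col1a1, Gng4, Fads1, a desaturase of polyunsaturated fatty acids, Sdc3, a neuronal heparan sulfate proteoglycan, and Zfand2a. Fads1 had 57.4 ± 1.79 FPKM in male C57 and 62.7 ± 2.82 in male KO (log2 0.12), and Sdc3 23.4 ± 1.0 and 25.6 ± 0.361 (log2 0.13). The 30 lower ones included, besides Fmr1, Serpina3n, Syt16, Krt9 and Klk8, the carbonic anhydrase gene Car4, the potassium channel subunit gene Kcnv1 and Neurod6, a transcription factor of pyramidal neurons. Neurod6 had 150, 138, 150, 145 and 150 FPKM in male C57 and 133, 133, 132, 130 and 130 in male KO. All KO values lay below the lowest C57 value (log2 -0.15, limma adjusted p = 0.224), and in females the gene fell by 0.23 (limma adjusted p = 0.0267). Car4 had 16.5 ± 0.976 and 14.0 ± 0.890 FPKM in males (log2 -0.22). In males, only Fmr1 and Serpina3n of these 42 genes passed.

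The KO effect itself differed between the sexes in 6 of 13174 genes (0.0455%, limma interaction over all 20 libraries), each more negative in males. The muscle genes, admitted by the filter only through their 5 male C57 libraries, made up 3 of them, and with a filter of 2 FPKM, which leaves them out, the count was 0. Atp2a1 differed by -0.85 (limma adjusted p = 0.00076), Ckm by -0.76 (0.00076) and Myh4 by -0.78 (0.0018). Foxo6, a forkhead transcription factor gene, differed by -0.66 (limma adjusted p = 0.027), with 5.30 ± 0.540 FPKM in male C57 and 5.15 ± 0.297 in male KO while its female level rose. Fbxl14, a ubiquitin ligase receptor gene, differed by -0.31 (limma adjusted p = 0.044). Its male values were 9.34, 8.52, 9.20, 9.54 and 9.57 FPKM in C57 and 8.22, 8.70, 8.71, 7.91 and 8.30 in KO, overlapping. Emc1, a subunit of the membrane protein insertion complex of the endoplasmic reticulum, differed by -0.24 (limma adjusted p = 0.049) and overlaps Ubr4 on the same strand, with which it can share reads. At an unadjusted p under 0.05 the interaction gave 1320 genes (10%).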

How the data were processed

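Per the file headers, the authors deposited FPKM for 13256 genes, 1 table per sample. FastQC, HISAT2, StringTie and the build mm10 are named, with no versions, per the submitters' processing notes. Strandedness, trimming and gene annotation: not given in the sources used here. Low FPKM are not multiples of a whole read's worth, so depth is unknown and no counting interval was computed.

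Genes with at least 0.5 FPKM in 5 of the 10 male libraries (12933) were fitted as log2(FPKM + 1) with limma 3.58.1 (limma-trend, R 4.3.3), KO against C57, with Benjamini-Hochberg adjustment over all of them. The female comparison used its own 10 libraries (12970 genes) and the interaction all 20 (13174). Fmr1 was also tested by exact permutation.

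The members and the 40 gene lists were chosen with earlier results of these data known. Named genes are Fmr1, Fxr1 and Fxr2, every gene that passed, the 12 smallest p-values in each direction (plain symbols, mean of 1 FPKM or more in a group), up to 4 members of each list, and tissue markers. Muscle and oligodendrocyte members beyond these, genes without overlap in both sexes and those of the interaction were added after their values were seen. Alternatives were 20 libraries, upper-quartile rescaling, GC trend removal, no filter or 2 FPKM, a pseudocount of 0.1, robust empirical Bayes, library weights, a replicate block and leaving out each library. Promoters came from RefSeq (GRCm38.p6). Results of some list members are left out of the text.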

Additional observations from a re-analysis of the deposited data

Results flagged for a closer look

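Within a group of 5, Phyh in C57 replicate 3 (49.1 FPKM), Igsf21 in C57 replicate 2 (9.73 FPKM) and March7 in C57 replicate 3 (6.41 FPKM) were flagged. In each, the gap to the nearest library was more than 0.71 of the group's range. Such a gap can be small in FPKM where the other libraries lie close together. The flagged values are 3 of 57 gene and group pairs looked at, and chance flags about 1 in 20.

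By the limma interaction, the difference of the KO effects (male minus female) was -0.85 for Atp2a1, -0.76 for Ckm and -0.78 for Myh4 on the log2 scale. It was -0.66 for Foxo6, -0.31 for Fbxl14 and -0.24 for Emc1.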

How the results depend on the processing

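The count of genes that passed in males (5) became 1 with a filter of 2 FPKM, which leaves out the 3 muscle genes and under which Serpina3n did not pass, and 1 with the replicate block; the cause of the latter was not tested. Leaving out single libraries gave 3 to 8 genes, with 3 without C57 replicate 4, C57 replicate 5 or KO replicate 3 and 8 without KO replicate 1. The other settings gave 5 or 6. Fmr1 passed in all 19 settings, Atp2a1 and Ckm in 17, Serpina3n and Myh4 in 10. The interaction count (6) became 3 after GC trend removal, 3 with the replicate block and 0 with the 2 FPKM filter (limma, 1104 genes at an unadjusted p under 0.05). Without single libraries it ran from 3 to 7, with 3 without any 1 of female C57 replicate 3, female KO replicates 1, 4 and 5, male C57 replicate 5 and male KO replicates 1, 2, 3 and 5.

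Same-numbered libraries share only a number: over the 5 pairs their deviations correlated at -0.07 to 0.07, and 1 of 10 libraries correlated best with its own number. With the replicate block as exact sign flips of the 5 pairs, the Fmr1 difference of -1.44 had p = 0.062, the smallest 5 pairs allow. The values of named genes were recomputed under 13 of the 19 settings (20 libraries, upper-quartile rescaling, the other pseudocount and each library left out), not under the replicate block or the 2 FPKM filter, which removed most calls. Of these 2600 values for 200 genes 2569 kept direction and side of the threshold, 14 lost and 7 gained the call, and 10 values in 8 uncalled genes turned sign. With single libraries left out, the range was -0.27 to 0.03 for Bok, -0.01 to 0.13 for Dynlrb2, -0.07 to 0.01 for Foxo6, -0.01 to 0.12 for Ddx3y, -0.25 to 0.41 for Kcnj13, -0.21 to 0.23 for Clic6, -0.24 to 0.20 for Enpp2 and -0.65 to 0.67 for Ttr. Depth is unknown, so what it limits cannot be stated.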

Other observations

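Some genes with large differences stood at separate levels in libraries of the same group. Mpped1, a gene enriched in pyramidal neurons, had 36.0, 24.0, 39.1, 41.1 and 37.6 FPKM in male C57 and 10.4, 5.38, 37.1, 36.5 and 5.64 in male KO (log2 -1.29, limma adjusted p = 0.523). Foxp1, a transcription factor gene, had 1.63, 1.84, 2.03, 1.64 and 9.03 in C57 and 7.62, 7.41, 7.68, 2.24 and 7.42 in KO (log2 0.97, limma adjusted p = 0.549). Chrnb2, a nicotinic receptor subunit gene, was at 1.40 and 1.22 FPKM in C57 replicates 2 and 5 and between 5.87 and 7.02 in the other 8 male libraries. Fdft1, squalene synthase, was between 17.3 and 20 FPKM in KO replicates 2, 3 and 4 and between 9.53 and 11.3 in the other 7. The females had both levels of each gene.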
